A study of Mus musculus with 16 samples.

Results

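Liver was compared with kidney in mice kept under a chronic phase advance of the light cycle, abbreviated ADV. The comparison used 8 of the 16 libraries of the series, the liver and the kidney of each of the 4 ADV-conditioned mice A75, A91, A94 and A115, chosen by their labels. Each kidney was paired with the liver that carries the same mouse number, so that every difference was taken within a mouse. Genes were matched between the organs by transcript identifier, and those with a mean above 0.5 FPKM in either organ were tested, which left 14291 of 32989 genes. FPKM is the number of sequenced fragments per length of exon and per depth of the library, so that levels of different genes can be compared per length.

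All animals were wild-type male C57BL/6J mice, an inbred strain, with no transgene or drug. The ADV-conditioned mice lived for 85 weeks on a light-dark cycle that was moved forward by 8 h once every 4 days, and their organs were taken at 97 weeks of age. The 4 LD-conditioned mice L63, L65, L86 and L104 were of the same age and stayed on a fixed light-dark cycle, and their 8 libraries are used below as the control for the organ difference. Each library was poly(A)-selected RNA of 1 organ of 1 mouse. In such bulk tissue, fewer cells of a type and less RNA per cell cannot be told apart.

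Liver and kidney are both epithelial organs with a high metabolic rate, and they divide the chemistry of the blood between them. Hepatocytes secrete the plasma proteins, make urea and bile acids, and store glycogen. The nephron filters plasma at the podocytes, recovers solutes in the proximal tubule, and sets salt and water in the loop of Henle, distal tubule and collecting duct. Hepatocytes and proximal tubule cells share a set of enzymes for fructose, amino acid and fatty acid metabolism, and both use transcription factors of the HNF1 and HNF4 families. Immune identity differs as well. Kupffer cells are macrophages resident in the liver sinusoids, whereas the kidney holds resident phagocytes that present antigen on MHC class II, the molecules that show peptides to helper T cells. MHC class I, which shows peptides to killer T cells, is carried by most nucleated cells.

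The libraries held between 21092501 and 21721621 fragments on genes in the ADV livers and between 16142472.5 and 18043306 in the ADV kidneys. In a transcript of 1 kb, 1 fragment was worth 0.0427 to 0.0440 FPKM in the livers and 0.0508 to 0.0565 FPKM in the kidneys, and counting error therefore dominated levels near these values. The kidney of A115 stood apart. Mitochondrially encoded transcripts took 33.8% of its fragments against 9.43% to 13.1% in the other 3 ADV kidneys and 15.7% to 18.0% in the LD kidneys, and its 10 most abundant genes took 40.0% of fragments against 14.8% to 18.5%. A94 stood apart in both organs, since most lymphocyte and MHC class II transcripts were several times higher there than in the other ADV-conditioned mice. RNA quality of the libraries is not given in the sources used here, and its part in the results that rest on A115 was not tested. The study names more than one sequencing provider, and which library came from which is not given in the sources used here, so no value within a sequencing batch could be computed.

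In the ADV-conditioned mice, 1262 genes were higher in liver, which is 8.83% of the genes tested, and 5497 were higher in kidney, which is 38.5% (limma with the mouse as a block, adjusted p under 0.05). These shares are the background for counts with all mice. The median gene was lower in liver by 0.68 on the log2 scale, and the split depended on scaling. With each library scaled by its median ratio over all libraries, 2411 genes were higher in liver and 2817 in kidney, the median difference moved to 0.03, and the share of calls that favoured liver went from 18.7% to 46.1% (44.1% with quantile normalisation). Differences of several log2 units, as in the identity genes, are far outside this shift. Differences of about 1 log2 unit, as in most immune lists, are not, and their counts are given under both scalings. Each count under another setting has the background of its own fit. In liver and kidney these shares were 16.9% and 19.7% under median-ratio scaling, 15.5% and 19.6% under quantile normalisation and 9.05% and 40% without the mouse block. They were 6.8% and 21.9% without A75, 6.14% and 19% without A91, 6.72% and 23.9% without A94 and 11.1% and 64.1% without A115, so that a higher kidney count of a list without A115 goes with a higher share of all genes. All fold differences below are log2(FPKM + 0.1) in liver minus kidney, as the mean over the 4 mice ± the SE of the limma fit. That SE draws the variance of a gene toward that of other genes, so it is not the SE of the 4 values alone. Where 1 mouse stands apart, the levels show the spread better. Levels are given for A75, A91, A94 and A115 in that order.

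Hepatocyte genes separated the organs in all 4 ADV-conditioned mice. All 34 plasma protein genes were higher in liver with a median difference of 9.90, and so were all 31 hepatocyte enzymes that were tested, with a median of 10.39. Of 18 hepatocyte transporters and receptors, 13 were higher in liver and 1 in kidney, with a median of 6.96 (3 in kidney without A115), or 7.06 with genes at 0 in all kidneys set at their bound. Of 16 hepatocyte transcription factors, 15 were higher in liver and none in kidney, with a median of 4.12. The summed level of the plasma protein list was 120057, 97212, 103487 and 110489 FPKM in the livers and 429.6, 309, 276 and 372 FPKM in the kidneys.

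Albumin, the main carrier protein of plasma, is encoded by Alb at chr5:90460870-90476602 (mm10), and was 48471, 42997, 43057 and 45555 FPKM in the livers and 3.23, 4.56, 3.83 and 2.83 FPKM in the kidneys. The organs lay far apart in every mouse, and the difference was 13.59 ± 0.23 (limma, adjusted p = 6.33e-06). Serpina3k, a secreted serine protease inhibitor and the gene with the largest difference in favour of liver, was 6809, 4844, 4088 and 7592 FPKM in the livers and at 0 in all 4 kidneys, which makes it at least 44220-fold higher in liver when the lowest liver is set against 3 fragments in a kidney. Ahsg, the plasma glycoprotein fetuin-A, was 4096, 3666, 4863 and 3926 FPKM in the livers and 0, 0.0375, 0.0337 and 0 FPKM in the kidneys, a difference of 15.11 ± 0.20. The haem scavenger hemopexin, Hpx, was 5549.8, 2645, 5557 and 4390.2 FPKM against 0.246, 0.0769, 0.104 and 0.320 FPKM, with the lowest liver in A91. Serpina1e, one of the alpha-1-antitrypsin genes, was 3972, 1102, 4883 and 3492 FPKM in the livers against 0.0406, 0.0619, 0.167 and 0 FPKM in the kidneys, and A91 was again lowest. Serpina3k, Serpina1e and the major urinary protein genes belong to families of near-identical copies, among which reads may have been split.

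Among the enzymes, Cps1, which makes carbamoyl phosphate for the urea cycle, was 603, 748, 373 and 660.0 FPKM in the livers and 0 in every kidney, at least 13540-fold higher in liver. Mat1a, the hepatic S-adenosylmethionine synthetase, behaved alike, with 1120.3, 1391, 1022 and 1205 FPKM in the livers and 0 in the kidneys. Fabp1, the liver fatty acid-binding protein, was 5090.0, 5923, 2809 and 4229 FPKM against 0.626, 0.290, 0.832 and 1.498 FPKM. The steroid and drug hydroxylase Cyp3a11 was 2879, 3802, 1183 and 2685 FPKM in the livers and 0 to 0.0995 FPKM in the kidneys, and A94 had the lowest liver level. In each of these 4 genes the A94 liver was the lowest, yet far above any kidney.

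The transporters Slco1b2, which takes up organic anions, and Slc10a1, which takes up bile acids, differed by 11.84 ± 0.23 and 7.53 ± 0.51. Slc27a2, a very-long-chain acyl-CoA synthetase, went against the organ of its list, with 451, 419, 284 and 435 FPKM in the livers and 1425, 1909.8, 1399.7 and 1320.5 FPKM in the kidneys (difference -1.94 ± 0.25, limma adjusted p = 0.00231). The glucose transporter Slc2a2 was only slightly higher in liver, by 0.72 ± 0.21 (limma adjusted p = 0.0376), and this call was lost when any of A75, A91 or A94 was left out (adjusted p = 0.0849 to 0.201). Of the transcription factors, Cebpa was 87.3, 123, 108 and 112 FPKM in the livers and 6.74, 9.41, 13.5 and 1.03 FPKM in the kidneys, a difference of 4.25 ± 0.62. Creb3l3, which activates secretory and lipid genes, differed by 7.96 ± 0.37, and the pioneer factors Foxa3 and Foxa1 by 7.22 ± 0.28 and 2.75 ± 0.31.

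Nephron genes separated the organs as clearly, with lower levels of several of them in A115. Of 40 proximal tubule genes 38 were higher in kidney and none in liver, with a median difference of -8.66. All 25 genes of the loop of Henle and distal tubule, 23 of 24 collecting duct genes, 15 of 16 podocyte genes and all 20 genes of the nephron transcription factor list were higher in kidney, with medians of -8.65, -6.10, -3.48 and -5.93. With genes at 0 in all livers set at their bound, the medians of these last 4 lists were -8.93, -6.55, -3.48 and -6.30.

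Kap, the androgen-regulated kidney protein of the proximal tubule, had the largest difference in favour of kidney. It was 16595, 28105, 19599.7 and 45922 FPKM in the kidneys and 0 in every liver, at least 78210-fold higher in kidney. Slc34a1 (chr13:55399648-55414695, mm10), the main phosphate transporter of the proximal tubule, was 1293, 1553, 1312 and 154 FPKM in the kidneys and 0 in the livers. Its level in A115 was thus about an order of magnitude under the other kidneys, whose levels in turn exceeded the 801 to 992 FPKM of the LD kidneys. Miox, which breaks down inositol, was 1668, 1764, 1664 and 259 FPKM in the kidneys, and Fxyd2, a subunit of the sodium pump, was 3265, 2350.2, 2444 and 373 FPKM. Tmem27, also called collectrin and needed for amino acid uptake, was 624, 1338, 1108 and 1714 FPKM and was highest in A115. The A115 kidney was therefore low in some proximal tubule genes and high in others.

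Umod, the protein of urinary casts made in the thick ascending limb, was 2282, 1392, 1394 and 818 FPKM in the kidneys and 0, 0, 1.33 and 0 FPKM in the livers, with fragments in the A94 liver only. Aqp2, the water channel of the collecting duct, was 104.4, 187, 199.99 and 1.81 FPKM in the kidneys and 0 in all livers (difference -9.03 ± 1.20, limma adjusted p = 0.00270). A115 held almost none of it, and this kidney sets the bound of at least 19.79-fold. Hsd11b2, which protects the mineralocorticoid receptor from corticosterone, was 48.8, 51.4, 55.8 and 7.60 FPKM and likewise lowest in A115, whereas the proton pump subunit Atp6v0a4 was even across the kidneys at 73.3, 74.2, 77.0 and 68.2 FPKM. Plce1 was the 1 podocyte gene higher in liver, by 0.88 ± 0.25 (limma adjusted p = 0.0328), a call that was lost without A75, A91 or A94 (adjusted p = 0.102 to 0.151).

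The nephron transcription factor list also holds an adhesion gene, the kidney-specific cadherin Cdh16, which was 353, 327, 277 and 51.6 FPKM in the kidneys. Of its transcription factors, Hoxd8 was 36.4, 62.1, 53.5 and 45.7 FPKM.

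The promoters of 3 genes that carry the liver identity and 2 that carry the kidney identity are shown to let the organ difference be read beside its sequence. They come from RefSeq on GRCm38.p6, the plus strand in each case, with 250 bases before and 50 after the annotated start. The windows are chr5:90460620-90460919 for Alb, chr6:71199629-71199928 for Fabp1, chr9:46228380-46228679 for Apoa1, chr13:55399398-55399697 for Slc34a1 and chr15:89334223-89334522 for Miox. Capitals mark the 6-base half-site of the HNF1 motif, searched as GTTAAT on both strands and so read as GTTAAT or ATTAAC.
Alb: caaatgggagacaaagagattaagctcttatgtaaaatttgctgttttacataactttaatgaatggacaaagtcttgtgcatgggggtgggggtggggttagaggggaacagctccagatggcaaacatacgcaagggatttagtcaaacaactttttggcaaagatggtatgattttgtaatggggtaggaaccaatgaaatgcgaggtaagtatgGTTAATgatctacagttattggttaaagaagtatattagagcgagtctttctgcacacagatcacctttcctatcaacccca
Fabp1: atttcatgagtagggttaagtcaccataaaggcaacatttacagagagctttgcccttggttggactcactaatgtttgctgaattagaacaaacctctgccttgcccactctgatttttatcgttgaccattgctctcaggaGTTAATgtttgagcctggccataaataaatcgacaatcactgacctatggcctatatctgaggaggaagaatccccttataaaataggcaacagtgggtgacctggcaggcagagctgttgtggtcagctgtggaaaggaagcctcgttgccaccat
Apoa1: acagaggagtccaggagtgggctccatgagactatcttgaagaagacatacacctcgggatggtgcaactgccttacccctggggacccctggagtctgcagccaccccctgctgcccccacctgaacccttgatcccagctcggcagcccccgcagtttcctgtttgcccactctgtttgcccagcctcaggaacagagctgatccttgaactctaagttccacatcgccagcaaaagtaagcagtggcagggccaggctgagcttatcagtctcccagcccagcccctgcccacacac
Slc34a1: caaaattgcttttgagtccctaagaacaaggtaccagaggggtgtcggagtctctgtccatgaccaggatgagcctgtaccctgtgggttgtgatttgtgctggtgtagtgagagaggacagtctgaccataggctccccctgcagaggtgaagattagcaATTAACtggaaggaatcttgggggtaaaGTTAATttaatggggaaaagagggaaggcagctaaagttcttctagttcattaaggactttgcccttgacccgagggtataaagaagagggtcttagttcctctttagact
Miox: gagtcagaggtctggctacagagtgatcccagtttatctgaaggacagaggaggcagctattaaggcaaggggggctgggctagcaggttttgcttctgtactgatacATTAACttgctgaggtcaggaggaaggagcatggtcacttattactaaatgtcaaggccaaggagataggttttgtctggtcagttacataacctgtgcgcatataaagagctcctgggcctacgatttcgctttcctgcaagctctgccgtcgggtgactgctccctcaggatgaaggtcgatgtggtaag

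The half-site lay 32 bases before the start in Alb, 107 before it in Fabp1, 142 before it in Miox, and 89 and 61 before it in Slc34a1, and the Apoa1 window held none. Over all genes with a window, 8.24% held it (2228 of 27025). Of the list genes with a window it was in 28.6% of plasma protein genes (8 of 28), 24.2% of proximal tubule genes (8 of 33), 28.6% of the nephron transcription factor list (4 of 14) and 5.26% of hepatocyte enzymes (1 of 19). Over all list genes it was 12.4% (74 of 596). The highest share, 45.5%, was in tubular injury genes (5 of 11), followed by complement at 31.0% (9 of 29), and 8 lists held none. A match of 6 letters is a description of the sequence and says nothing about which factor is bound. Windows were found for 596 of 797 list genes, and Serpina3k, Gys2, Tmem27 and Cd74 had no entry.

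**Figure D1:**
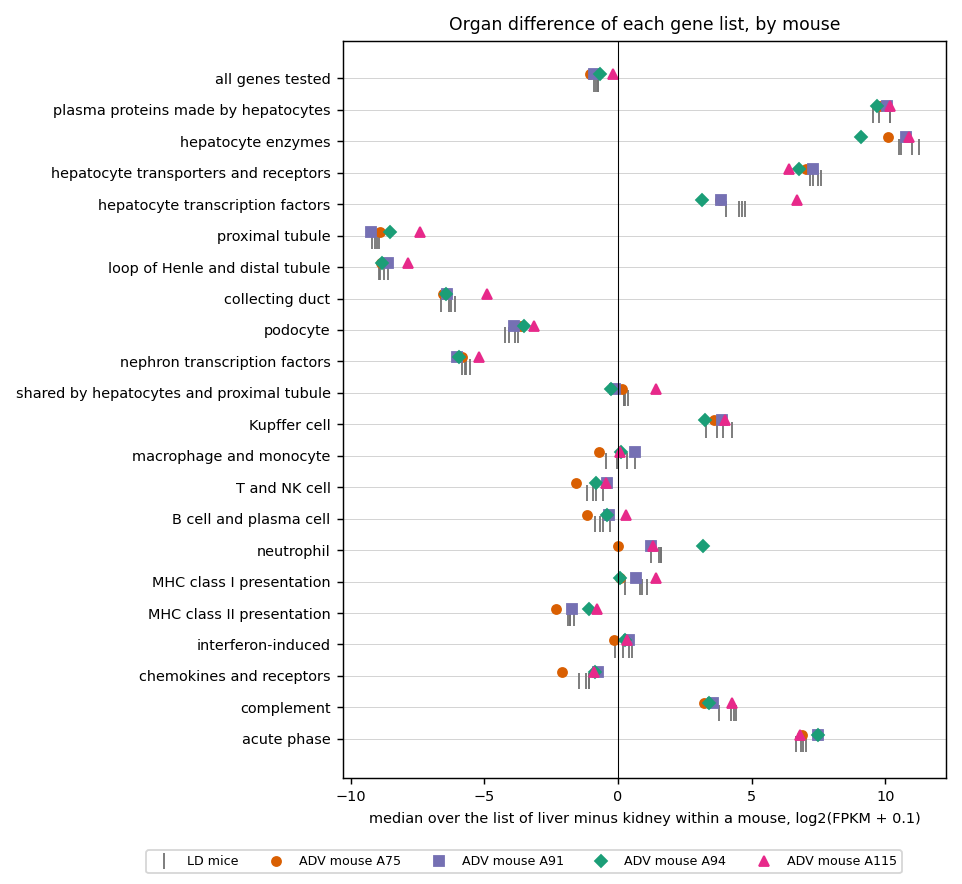
Median over each gene list of the difference between liver and kidney within a mouse, in log2(FPKM + 0.1), with 1 symbol for each ADV-conditioned mouse and grey ticks for the LD-conditioned mice. Hepatocyte lists lie to the right of 0 and nephron lists to the left in all mice, and the collecting duct list of A115, at -4.88, lies apart from the other 3 ADV-conditioned mice, at -6.55 to -6.38.

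Genes that hepatocytes and proximal tubule share were close to even. Of 30 such genes 9 were higher in liver and 4 in kidney, with a median difference of 0.31, against 8.83% and 38.5% over all genes. The counts were 17 and 4 with a median of 1.05 under median-ratio scaling, and with a mouse left out 5 and 4 without A75, 4 and 4 without A91, 6 and 4 without A94 and 10 and 6 without A115, with medians of -0.17 to 0.53. Cyp2e1, which oxidises ethanol, was 4184, 4966, 3673 and 3732 FPKM in the livers and 863, 850.4, 683 and 963 FPKM in the kidneys, and no value of one organ reached the other (difference 2.30 ± 0.25, limma adjusted p = 0.00134). Ass1, which condenses citrulline and aspartate, was 779, 1299, 602 and 964 FPKM against 928, 1519, 1359.6 and 334 FPKM, overlapping between the organs, with the lowest value in the A115 kidney. Hao2, a hydroxy acid oxidase, was within this list the gene furthest toward kidney among those named, at -9.17 ± 0.49.

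Liver and kidney often use different members of a gene pair for the same or a related reaction or solute. For 9 such pairs, picked for this known division so that their direction is a description and not a test, the log2 ratio of the liver-type gene to the kidney-type gene was taken within each library. A single scaling factor per library cancels in this ratio apart from the 0.1 added to each level. The ratio of the bile acid transporters Slc10a1 to Slc10a2 was 3.22 to 4.47 in the ADV livers and -5.21 to -2.25 in the ADV kidneys. Of this pair Slc10a1 passed the test, at 278, 397, 225 and 327 FPKM in the livers and 1.40, 0.610, 3.53 and 1.72 FPKM in the kidneys (limma adjusted p = 0.000250). Slc10a2 was 29.7, 24.1, 16.03 and 14.6 FPKM against 20.5, 23.8, 17.2 and 67.3 FPKM, overlapping between the organs, and did not (difference -0.43 ± 0.48, limma adjusted p = 0.491). The ratio of the related carboxylate transporters Slc13a5 to Slc13a3 was negative in both, at -3.82 to -2.48 in liver and -9.81 to -6.84 in kidney. Of the lactate dehydrogenase genes 1 passed the test. Ldha was 438, 308, 289 and 354 FPKM in the livers and 347, 299.9, 294 and 144 FPKM in the kidneys, whereas Ldhb was 3.02, 2.27, 2.05 and 1.70 FPKM and 1207, 802, 782 and 565 FPKM (difference -8.45 ± 0.18, limma adjusted p = 7.35e-06). Ldha did not pass (limma adjusted p = 0.296).

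Glycogen synthase Gys2 was not confined to liver, and its ratio to Gys1 was 5.26 to 6.78 in liver and -1.36 to 1.34 in kidney, with the single positive kidney in A115. For Pklr over Pkm, the liver and muscle types of pyruvate kinase, the liver ratio was 1.44 to 3.54, and 3 of the 4 ADV livers lay under the 3.31 to 4.20 of the LD livers. The transporters Slc22a7 over Slc22a6 had the lowest kidney ratio, -6.89, in A115.

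**Figure D2:**
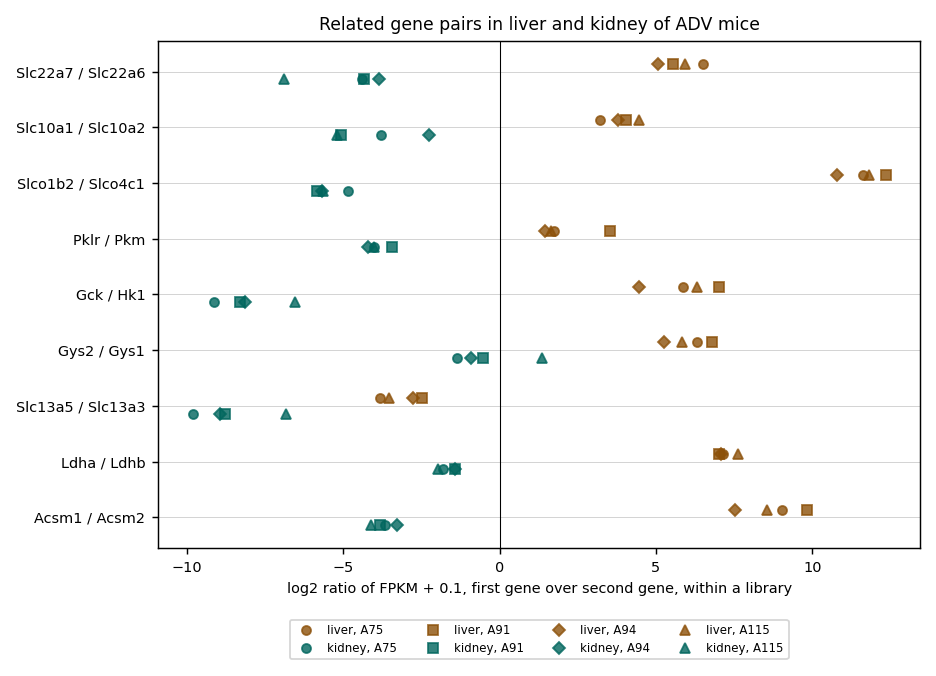
Log2 ratio of the liver-type to the kidney-type gene of 9 pairs, each from FPKM + 0.1 within a library, with 1 symbol for each of the 8 ADV libraries and colours for the organs. Liver ratios lie to the right of kidney ratios in each pair, and the Gys2 to Gys1 ratio is positive in 1 kidney, at 1.34.

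Kupffer cell genes were on the liver side. Of 14 Kupffer cell genes 12 were higher in liver and none in kidney (1 in kidney without A115), with a median difference of 3.67. Clec4f, a lectin that in the mouse marks Kupffer cells, was 34.6, 28.5, 97.5 and 32.5 FPKM in the livers and 0 in all 4 kidneys, at least 402.8-fold higher in liver. The A94 liver was well above the others, and every ADV liver lay above the 20.3 to 27.6 FPKM of the LD livers. Cd5l, a protein secreted by tissue macrophages, was 47.0, 45.8, 196 and 47.1 FPKM in the livers and 0.219, 0.0557, 4.00 and 0 FPKM in the kidneys, highest in A94 in both organs. Slc40a1, the iron exporter ferroportin, was 47.2, 53.5, 59.9 and 57.7 FPKM against 15.9, 12.6, 17.8 and 16.1 FPKM, a difference of 1.81 ± 0.19 (limma adjusted p = 0.00120).

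General macrophage and monocyte genes were split between the organs. Of 30, 4 were higher in liver and 7 in kidney, with a median of 0.14 (-0.11 to 0.21 with a mouse left out and 0.86 under median-ratio scaling). Under median-ratio scaling the counts in liver and kidney were 12 and 2, and with a mouse left out they were 2 and 2 without A75, 1 and 1 without A91, 3 and 2 without A94 and 5 and 8 without A115. The 4 higher in liver, named after their values were seen, were Adgre1, Mrc1, Mpeg1 and Siglec1, at 0.98 to 1.79. Lyz2, the lysozyme of macrophages, was 123, 78.4, 146 and 82.6 FPKM in the livers and 124, 40.9, 271 and 49.7 FPKM in the kidneys, with overlapping organs (difference 0.19 ± 0.35, limma adjusted p = 0.686). Cathepsin S, Ctss, was 47.3, 34.4, 164 and 35.5 FPKM against 47.6, 18.9, 204 and 39.9 FPKM, and the complement subunit C1qb was 49.7, 41.8, 151 and 43.3 FPKM against 69.9, 17.1, 130.2 and 12.8 FPKM, neither of which passed. In these genes the spread between mice exceeded the difference between organs, and A94 was high in both organs.

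Lymphocyte genes were low except in A94. The summed level of 35 T and NK cell genes was 14.3, 14.6, 82.7 and 11.5 FPKM in the livers and 32.7, 15.7, 151 and 15.1 FPKM in the kidneys. Of the 25 tested, 5 were higher in kidney and 1 in liver, with a median of -0.86, and these counts were unstable. They became 2 in liver and 1 in kidney under median-ratio scaling, and 3 and 0 with a median of 0.12 under quantile normalisation. With a mouse left out they were 0 and 0 without A75, 0 and 0 without A91, 1 and 1 without A94 and 2 and 13 without A115, with medians of -1.02 to -0.55. Cd3e, a chain of the T cell receptor complex, was 0.150, 0.212, 1.85 and 0.287 FPKM in the livers and 0.933, 1.05, 5.58 and 0.585 FPKM in the kidneys. It was higher in the kidney of all 4 mice, with a difference of -1.57 ± 0.32 (limma adjusted p = 0.0114), but not past the threshold without the mouse block (0.153) nor when A75, A91 or A94 was left out (0.0570 to 0.0723). The chemokine Ccl5, made by T and NK cells, was 2.06, 1.80, 15.2 and 1.22 FPKM against 9.13, 3.42, 43.3 and 1.09 FPKM, a difference of -1.08 ± 0.41 that did not pass with all mice (limma adjusted p = 0.0754) and did without A115 (0.00311). The other members higher in kidney, named after their values were seen, were Cd3g, Cd247, Cd8a and Il7r, and the 1 higher in liver was Zap70, at 2.72.

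B cell and plasma cell genes summed to 21.9, 27.1, 780.4 and 11.5 FPKM in the livers and 92.8, 63.8, 663 and 25.4 FPKM in the kidneys. Of 27 tested, 3 were higher in kidney and none in liver, with a median of -0.31, a share below the background of 38.5%. Median-ratio scaling gave 3 in liver and 2 in kidney with a median of 0.38, and leaving out A115 gave 2 and 9. With a mouse left out the median was -0.42 to -0.12. The 3 were Prdm1, Blnk and Cd72, named after their values were seen, of which Blnk, an adaptor of B cell receptor signalling, was 0.719, 0.644, 5.01 and 0.342 FPKM in the livers and 11.3, 6.28, 15.5 and 4.46 FPKM in the kidneys. Jchain, which joins polymeric antibodies in plasma cells, was 9.90, 15.5, 600.1 and 3.21 FPKM in the livers and 52.6, 43.2, 432 and 12.2 FPKM in the kidneys. It was higher in kidney in 3 mice and higher in liver in A94 (difference -1.32 ± 0.49, limma adjusted p = 0.0747, and 0.0151 without A94). Cd79a, part of the B cell receptor, was 1.20, 0.998, 19.8 and 0.685 FPKM against 2.04, 0.791, 21.6 and 0 FPKM and favoured neither organ. In A94 both organs held far more than in any other ADV-conditioned mouse, and in A115 the kidney held none.

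Among 9 neutrophil genes tested, of 18 listed, 2 were higher in liver and none in kidney, with a median of 1.25 (6 and 0 under median-ratio scaling, 3 and 0 without A115, and 0 and 0 without A75, A91 or A94). S100a8, a subunit of the calprotectin dimer, was 5.71, 4.11, 33.1 and 2.11 FPKM in the livers and 1.28, 0.726, 3.59 and 2.28 FPKM in the kidneys. Only A115 had a kidney level as high as its liver, and the difference of 1.87 ± 0.55 passed narrowly (limma adjusted p = 0.0387), and not when A75, A91 or A94 was left out (0.129 to 0.145). The second gene was Retnlg, at 1.25 ± 0.36, whose level came mostly from A94, with 25.6 FPKM in liver and 19.1 FPKM in kidney. Retnlg did not pass without A75, A91 or A94 either (0.0560 to 0.117).

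MHC class II genes leaned to kidney, with 10 of 16 higher there and 1 in liver and a median of -1.43. The counts were 6 in kidney and 1 in liver under median-ratio scaling, with a median of -0.75, and the kidney count was 6 without A75 and 6 without A91. Without the mouse block 1 gene was higher in each organ. Most immune lists lost calls in that fit, which left, in liver and kidney, 1 and 3 macrophage, 1 and 0 T and NK cell, 0 and 1 B cell, 0 and 0 neutrophil, 1 and 0 MHC class I, 3 and 3 interferon-induced and 5 and 10 chemokine genes. Cd74, the invariant chain that guides class II molecules, was 48.8, 49.9, 429 and 33.3 FPKM in the livers and 313, 167, 1339.8 and 91.8 FPKM in the kidneys. Each kidney exceeded the liver of its own mouse, although the A94 liver exceeded the kidneys of A75, A91 and A115. The within-mouse difference was therefore -1.88 ± 0.27 (limma adjusted p = 0.00350) but did not pass without the mouse block (0.160). The class II chains H2-Ab1 and H2-Aa were 196, 95.04, 661 and 64.2 FPKM and 186, 106, 622 and 42.9 FPKM in the kidneys and differed by -2.31 ± 0.30 and -1.40 ± 0.23. They too passed with the mouse as a block only (limma adjusted p = 0.00252 and 0.00605 with it, 0.0828 and 0.273 without). Lgmn, a lysosomal protease that processes antigen and is also abundant in tubule cells, was 30.9, 23.3, 74.8 and 31.7 FPKM against 466, 305, 341 and 369 FPKM. The 1 gene higher in liver was the protease Ctsh, at 0.81, named after its value was seen.

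MHC class I genes had a median of 0.66, and 2 of 22 were higher in liver and 1 in kidney, where median-ratio scaling gave 12 and 0. The median was 1.40 with that scaling and 0.36 without A115. With a mouse left out the counts in liver and kidney were 0 and 0 without A75, 0 and 0 without A91, 1 and 0 without A94 and 5 and 3 without A115. B2m, the light chain of class I, was 2100.5, 1806, 2621 and 1735 FPKM in the livers and 645, 355, 1696 and 1806 FPKM in the kidneys. It was higher in liver in 3 mice and level in A115 (difference 1.15 ± 0.45, limma adjusted p = 0.0856, and 0.00882 without A115). The heavy chain H2-K1 was 772, 684, 1034 and 619 FPKM against 275, 156, 716 and 47.9 FPKM, and here the A115 kidney was the lowest (difference 1.96 ± 0.53, limma adjusted p = 0.0286, and 0.0773 and 0.103 without A75 and without A91). H2-D1 was 334, 271, 563 and 296 FPKM against 242, 144, 531 and 33.3 FPKM and did not pass (limma adjusted p = 0.131). The other called members were Erap1, which trims class I peptides and was higher in liver, and H2-M3, which was higher in kidney with a difference of -0.80 ± 0.24 and lost its call when A75, A91 or A94 was left out, and which lay at 0.04 under quantile normalisation. The H2 genes are close copies of each other, so reads may have been exchanged among them.

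**Figure D3:**
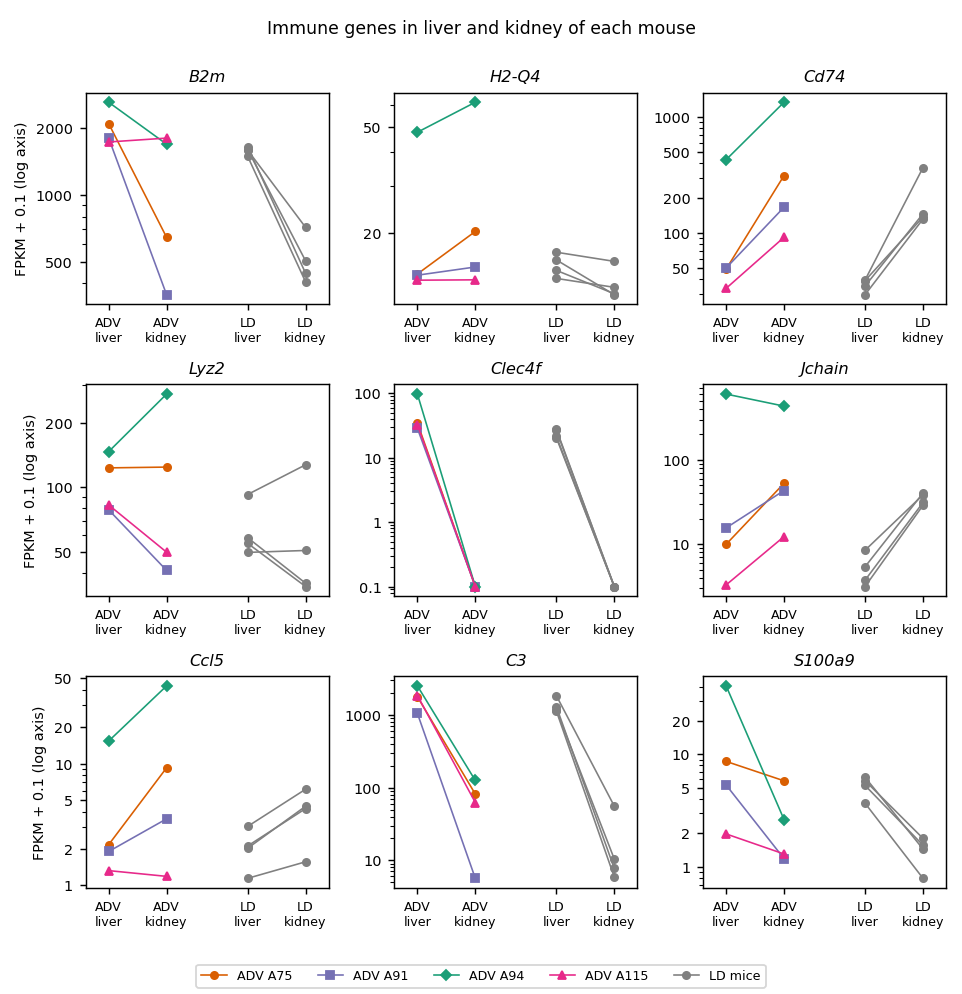
Levels of 9 immune genes in the 16 libraries, as FPKM + 0.1 on a log axis, with liver and kidney of a mouse joined by a line, ADV-conditioned mice in colour on the left of each panel and LD-conditioned mice in grey on the right. Cd74 slopes upward from liver to kidney in all 8 mice, Clec4f falls to 0 in all 8 kidneys, and A94 is the highest ADV-conditioned mouse for Jchain and Ccl5 in both organs.

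Interferon-induced genes were divided evenly, with 10 of 43 higher in each organ and a median of 0.39, against 18 and 2 in liver and kidney under median-ratio scaling. With a mouse left out they were 5 and 3 without A75, 4 and 4 without A91, 7 and 7 without A94 and 17 and 11 without A115, and the median was 0.98 with that scaling and 0.17 without A115. Bst2, which tethers budding virus, was 169, 125, 296 and 158 FPKM in the livers and 25.2, 10.9, 68.7 and 1.09 FPKM in the kidneys, and the GTPase Iigp1 was 114, 107, 282 and 99.5 FPKM against 5.48, 4.00, 63.6 and 11.4 FPKM. Both were higher in liver (differences 3.85 ± 0.83 and 3.58 ± 0.47, limma adjusted p = 0.0141 and 0.00252). Irgm1 was 23.2, 19.6, 67.6 and 25.8 FPKM against 25.5, 20.2, 98.8 and 15.7 FPKM, and its organs overlapped. Cmpk2, a nucleotide kinase induced with the viral response, differed by -1.69 ± 0.32 in favour of kidney, with 1.28, 0.876, 4.83 and 1.22 FPKM against 4.72, 5.45, 9.37 and 3.61 FPKM (limma adjusted p = 0.00899).

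Chemokines and their receptors leaned to kidney, with 15 of 42 higher there, 8 in liver and a median of -0.89, but a share of 15 in 42 is close to the 38.5% of all genes, and median-ratio scaling gave 8 in kidney and 9 in liver. The median turned to 0.12 under quantile normalisation. With a mouse left out the counts in liver and kidney were 4 and 8 without A75, 2 and 8 without A91, 4 and 11 without A94 and 12 and 23 without A115. Ackr3, a scavenging receptor of Cxcl12, was 0.881, 0.361, 1.86 and 0.466 FPKM in the livers and 45.5, 33.4, 41.7 and 35.1 FPKM in the kidneys, while its ligand Cxcl12 was 46.5, 38.0, 46.8 and 47.9 FPKM against 24.1, 15.8, 30.7 and 10.9 FPKM. Receptor and ligand thus lay on opposite sides, at -5.52 ± 0.35 and 1.23 ± 0.30 (limma adjusted p = 0.000197 and 0.019998), and the Cxcl12 call was lost without A75 (0.0614) or A91 (0.0882). Ccl8, a monocyte attractant, was 1.60, 0, 57.6 and 0.594 FPKM against 7.49, 2.67, 294 and 0.617 FPKM, so that nearly all of it was in A94. Its difference of -2.34 ± 0.74 (limma adjusted p = 0.0474) did not pass when A75, A91 or A94 was left out (0.111 to 0.144).

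Of 42 cytokine receptors and NF-kB pathway genes 8 were higher in each organ, with a median of -0.45 (9 and 3 in liver and kidney with a median of 0.27 under median-ratio scaling, and 6 and 3 without A75, 6 and 4 without A91, 6 and 4 without A94 and 8 and 19 without A115). Il1rap, the shared chain of interleukin-1 family receptors, was 33.8, 35.6, 14.6 and 32.3 FPKM in the livers and 0.780, 0.571, 0.524 and 0.545 FPKM in the kidneys, a difference of 5.30 ± 0.28. The lymphotoxin receptor Ltbr was 27.4, 28.1, 41.1 and 27.4 FPKM against 42.3, 31.1, 35.2 and 2.88 FPKM, and the TNF receptor Tnfrsf1a was 23.5, 20.7, 39.9 and 26.3 FPKM against 42.1, 21.5, 30.7 and 5.08 FPKM. Both were lowest in the A115 kidney, and the sign of their difference turned when A115 was left out (-0.18 and -0.17, against 0.66 and 0.46 with all mice, none past the threshold). Of 10 germinal centre and lymphoid tissue genes tested, 1 was higher in kidney, the transcription factor Bcl6, at -1.61 ± 0.24. Its call was lost under median-ratio scaling and without the mouse block (limma adjusted p = 0.0772 and 0.0611, against 0.00387). The list median of 0.08 became 0.78 under median-ratio scaling and -0.37 without A115, and the counts in liver and kidney 2 and 0 under median-ratio scaling, 4 and 0 under quantile normalisation, 1 and 0 without the block and 3 and 3 without A115.

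Complement and acute phase proteins, most of which hepatocytes secrete, were on the liver side. Of 37 complement genes 26 were higher in liver and 1 in kidney (2 without A115), with a median of 3.98, and of 24 acute phase genes 19 were higher in liver and none in kidney, with a median of 6.65, or 6.35 with genes at 0 in all kidneys set at their bound. C3, the central complement protein, was 1795, 1057, 2527 and 1860.2 FPKM in the livers and 81.5, 5.53, 126 and 62.3 FPKM in the kidneys, and the A91 kidney was the lowest by far (difference 5.31 ± 0.59, limma adjusted p = 0.00143). C7, a part of the membrane attack complex, was the 1 gene higher in kidney, with 0.976, 0.313, 3.19 and 0.553 FPKM against 13.8, 3.96, 16.004 and 6.58 FPKM. Haptoglobin, Hp, was 3900.3, 1818, 3642 and 3052 FPKM in the livers and 6.38, 0.928, 3.54 and 0.935 FPKM in the kidneys, a difference of 10.38 ± 0.41. The orosomucoid genes Orm1 and Orm2 reached 2005, 897, 2287 and 1508 FPKM and 203, 29.7, 714 and 139 FPKM in the livers, with A91 lowest in both and A94 highest.

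Vascular and stromal lists followed their organ less completely. Of 16 sinusoidal endothelial genes 10 were higher in liver and none in kidney, with a median of 1.96, and 11 and 2 without A115. Clec4g, a sinusoidal lectin, was 50.4, 45.3, 30.1 and 59.8 FPKM in the livers and 0, 0, 0.0414 and 0 FPKM in the kidneys. Of 15 renal endothelial genes 7 were higher in kidney and 1, Nostrin, in liver, with a median of -1.40 (-0.66 under median-ratio scaling). Plvap, which forms the diaphragms of fenestrated endothelium, was 11.1, 12.3, 23.1 and 15.8 FPKM against 76.4, 67.7, 96.2 and 4.86 FPKM and passed without A115 but not with all mice (limma adjusted p = 0.000143 and 0.194). Without A115 the renal endothelial count in kidney was 11, and under median-ratio scaling 3 were higher in liver. Of 16 stellate cell genes 8 were higher in liver and 1, the collagen gene Col1a1, in kidney. Col1a1 was 0.705, 0.335, 11.4 and 2.07 FPKM against 12.6, 2.46, 16.5 and 8.64 FPKM, with the A94 liver far above the other livers. The stellate count in kidney was 0 without A75, without A91, without the mouse block and under median-ratio scaling, and 3 without A115. Of 14 renal stromal genes 10 were higher in kidney and 2, Cxcl12 and the matrix protein gene Postn, in liver, and the kidney count was 6 without A75, 5 without A91 and 7 under median-ratio scaling. Postn was 162 FPKM in the A94 liver against 3.54 to 6.55 FPKM in the other ADV livers.

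Tubular injury genes divided the kidneys. Havcr1, the kidney injury molecule that tubule cells make after damage, was 111, 3.07, 3.42 and 123 FPKM in the kidneys and 0, 0, 0.257 and 0.0229 FPKM in the livers, and the LD kidneys ranged over 3.95 to 111 FPKM, with 1 of the 4 high. Spp1, the secreted phosphoprotein osteopontin, was 6636, 563, 786 and 8133 FPKM in the ADV kidneys and 605 to 2676 FPKM in the LD kidneys. A75 and A115 were thus the high ADV kidneys for both genes. Over the list, 9 of 18 genes were higher in kidney and 2 in liver, with a median of -1.22, and 4 and 3 without A75 and 6 and 4 under median-ratio scaling. Of 13 bile duct genes 11 were higher in kidney and none in liver, among them Epcam, an adhesion molecule of simple epithelia, at 2.12, 0.411, 1.55 and 0.652 FPKM against 58.5, 47.0, 58.3 and 71.8 FPKM. Lists for neighbouring tissues were not at 0. The adipocyte genes summed to 1651, 3514, 1484 and 1471 FPKM in the livers and 568, 645, 546 and 460.3 FPKM in the kidneys, most of it Car3, which was 855, 2804, 762 and 882 FPKM in the livers, and Pck1, an enzyme of glucose synthesis that hepatocytes and proximal tubule make too, which was 763, 662, 645 and 555 FPKM in the livers and 399, 547, 459 and 268 FPKM in the kidneys. The exocrine pancreas genes summed to 14.2, 8.91, 8.97 and 7.45 FPKM in the livers and 45.0, 63.2, 66.2 and 6.90 FPKM in the kidneys, nearly all of it the elastase gene Cela1, at 44.9, 63.1, 66.2 and 6.90 FPKM in the kidneys. None of 11 adrenal genes reached the minimum, Cyp11b1 was at most 0.0850 FPKM in any ADV kidney, and the adipocyte hormone gene Adipoq was 2.10, 0, 0 and 0.105 FPKM in the livers and 1.27, 1.15, 0.578 and 1.15 FPKM in the kidneys.

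Whether the phase advance blurred or widened the organ difference was asked by subtracting the difference in the LD-conditioned mice from that in the ADV-conditioned mice, gene by gene. In LD-conditioned mice 2292 of 14079 genes were higher in liver (16.3%) and 9660 in kidney (68.6%), against 8.83% and 38.5% in the ADV-conditioned mice. Without A115 the ADV counts were 1587 (11.1%) and 9155 (64.1%) of 14291. No gene had a changed difference at adjusted p under 0.05 in limma, a share of 0%, and limma-voom on fragments recovered from the FPKM values found 0 as well. At an unadjusted limma p under 0.05, 386 genes were shifted toward liver (2.74%) and 113 toward kidney (0.803%). The within-mouse differences of ADV- and LD-conditioned mice did not overlap in 393 genes toward liver (2.79%) and 80 toward kidney (0.568%).

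The outcome changed when A115 was left out. Without A115, 504 genes had a changed difference at adjusted p under 0.05 in limma, 71 toward liver (0.504%) and 433 toward kidney (3.08%), and 681 when the remaining libraries were also scaled within each organ, 182 toward liver (1.29%) and 499 toward kidney (3.54%). The median change over all genes went from 0.14 to -0.06 and 0.01 in these fits. Leaving out any of the 4 LD-conditioned mice, A75, A91 or A94 gave 0 genes. With all mice, 66.5% of genes had a smaller organ difference in ADV than in LD, and this share was not computed without A115 or under another scaling.

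Over all genes the spread of the organ difference did not pass a test of ADV against LD. The SD of the differences within a mouse was 2.32, 2.395, 2.17 and 2.57 in A75, A91, A94 and A115 and 2.36 to 2.3952 in the LD-conditioned mice, so that A94 was the narrowest of all 8 mice and A115 the widest. The means differed by -0.0144 (exact permutation test over 70 assignments, two-sided p = 0.8286, the same when adjusted over 3 measures). The correlation of liver with kidney across genes was 0.609 in A94, 0.524 in A115 and 0.583 to 0.585 in LD, with an exact p of 0.6. The slope of a mouse's differences on the mean differences in LD was 0.936, 0.986, 0.875 and 0.956 in the ADV-conditioned mice and 0.972 to 0.999 in the LD-conditioned mice (exact permutation p = 0.0571, adjusted 0.171, where 0.0286 is the smallest p that 4 against 4 allows). Each LD-conditioned mouse was left out of the LD mean it was compared with, and each ADV-conditioned mouse was compared with the mean of all LD-conditioned mice.

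Identity lists moved little against their size. In LD-conditioned mice the plasma protein, hepatocyte enzyme, proximal tubule and loop lists had medians of 10.002, 10.84, -9.07 and -8.88, and the median change over all genes was 0.14. The proximal tubule list had a median change of 0.32. Its difference was smaller in 36 of 40 genes, against 66.5% of all genes, and 7 of the 40 were shifted toward liver at an unadjusted p under 0.05, against 2.74% of all genes. Without A75, A91, A94 and A115 in turn the proximal tubule median was 0.50, 0.64, 0.54 and -0.01. The loop list had 0.24 with all mice and 0.43, 0.32, 0.24 and -0.04 in these runs, the collecting duct list 0.26 and 0.41, 0.39, 0.34 and -0.12, and the podocyte list 0.32 and 0.41, 0.39, 0.29 and -0.0034. The positive medians of these 4 lists were thus lost without A115. The nephron transcription factor list had no such shift with all mice, with a median of -0.0022, 10 changes positive and 10 negative, and -0.06, 0.09, 0.06 and -0.22 with a mouse left out. When the libraries without A115 were also scaled within each organ, the medians of the first 4 lists were 0.16, 0.14, 0.0022 and 0.06. The plasma protein list had a median change of -0.11 with all mice and -0.08, -0.03, 0.05 and -0.26 with a mouse left out in the same order. The hepatocyte enzyme list had -0.15 and -0.09, -0.28, -0.021 and -0.31, and the hepatocyte transcription factor list -0.04 and 0.10, 0.11, 0.18 and -0.53, so that the sign of the first and the last of these lists depended on the mice included. No member of any list passed the adjusted test with all mice.

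Of the immune lists, MHC class I and class II had median changes of opposite sign. In class I, 21 of 22 changes were negative, with a median of -0.18 (-0.59 without A115, where 5 members passed adjustment toward kidney, and 4 when scaled within each organ, beside 433 and 499 of 14079 genes (3.08% and 3.54%) in these fits, and -0.022 without A94 and -0.04 without A75). In class II, 13 of 16 were positive, with a median of 0.35 (0.22 without A115 and 0.18 without A94, and 0.60 without A75). Over all genes tested the median change was 0.14 with all mice and -0.06 without A115. H2-Q4 was lower in the liver than in the kidney of each ADV-conditioned mouse, with differences of -0.53, -0.10, -0.37 and -0.0045, and higher in the liver of each LD-conditioned mouse, with 0.11 to 0.43. Its change of -0.49 ± 0.19 had an unadjusted limma p of 0.0325 and an exact permutation p of 0.0286, and it did not pass adjustment. The exact p only restates that the conditions did not overlap, as in 0.568% of all genes toward kidney. The sign of the H2-Q4 difference in ADV turned under median-ratio scaling (0.48). The Kupffer cell list had a median change of 0.26 with all mice and 0.398, 0.25, 0.32 and 0.09 without A75, A91, A94 and A115 in turn. The T and NK cell list had 0.09 and 0.19, -0.07, 0.06 and -0.04, the interferon list 0.01 and 0.14, -0.03, -0.06 and 0.016, and the neutrophil list 0.24 and 0.60, 0.14, -0.37 and 0.46. The sign of these last 3 medians thus depended on the mice included.

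**Figure D4:**
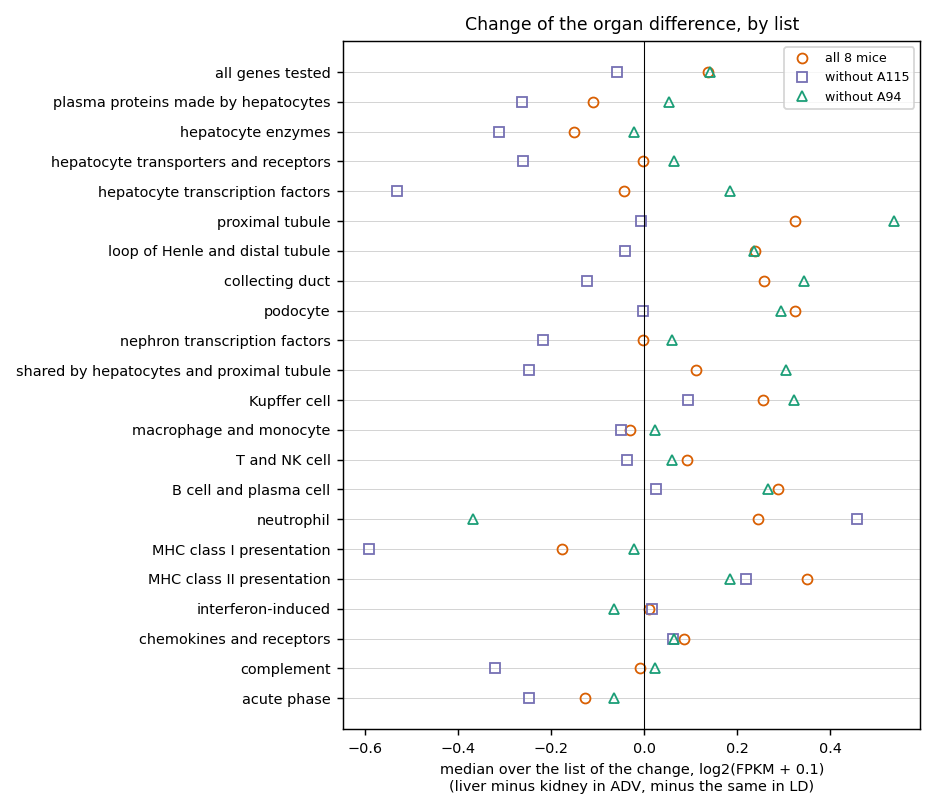
Median over each gene list of the change of the organ difference, that is liver minus kidney in ADV minus the same in LD, in log2(FPKM + 0.1), with all 8 mice and without A115 or A94. The square for the run without A115 lies to the left of the circle for every nephron list, and MHC class I moves from -0.18 to -0.59.

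The genes with the smallest p for the change were chosen by that p, so what follows describes them. When A115 was left out they kept the same direction, and all 12 of them then passed adjustment. That fit used the remaining mice of the same set, so it is no separate support. Rnaset2a, a lysosomal ribonuclease gene at chr17:8128598-8147788 (mm10), was 18.3, 17.7, 26.5 and 16.5 FPKM in the ADV livers and 11.9, 14.3, 19.8 and 8.99 FPKM in the ADV kidneys, against 18.6 to 21.6 FPKM and 1.89 to 4.28 FPKM in LD. All 4 ADV kidneys lay above all 4 LD kidneys while the livers were alike, and the organ difference was 2.73 in LD and 0.55 in ADV (change -2.17 ± 0.28, limma adjusted p = 0.497, exact permutation p = 0.0286). The close copy Rnaset2b, on the same chromosome at chr17:6978860-6998193, had a change of -1.58 ± 0.35, and reads of such close copies cannot be assigned with certainty.

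Apoa1 (chr9:46228630-46230469, mm10), the main protein of high-density lipoprotein, had an organ difference of 14.69 in LD and 13.29 in ADV. The ADV kidneys held 0.621, 0.517, 0.516 and 0.478 FPKM and the LD kidneys 0.119 to 0.178 FPKM, at a liver level of 8412, 4631, 6724 and 6140.1 FPKM in ADV and 6322 to 8059.7 FPKM in LD. The shift thus rested on a kidney trace of well under 1 FPKM (change -1.40 ± 0.21, limma adjusted p = 0.513). Gys2, the liver glycogen synthase at chr6:142422613-142473109 (mm10), was lower on the liver side. It was 52.9, 58.2, 39.0 and 44.3 FPKM in the ADV livers against 85.9 to 146 FPKM in the LD livers, without overlap, and 5.39, 7.43, 5.65 and 5.65 FPKM against 4.74 to 8.25 FPKM in the kidneys (change -1.04 ± 0.20, not past adjustment with all mice, and limma adjusted p = 0.0337 without A115). Mup3, a major urinary protein made by male liver, had a change of -1.10 ± 0.25, with 4836, 6027, 3216 and 5495 FPKM in the ADV livers and 5827 to 8704 FPKM in the LD livers. The kidneys held 0, 0.0627, 0 and 0.116 FPKM in ADV, which is 0, 1, 0 and 2 fragments, and 0 in LD, so part of the change lies in single fragments.

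In other genes the kidney excess was smaller beside higher livers, and in some the organ difference was wider. Nt5e, the ectonucleotidase CD73, was 3.68, 3.02, 3.19 and 5.87 FPKM in the ADV livers against 1.18 to 2.34 FPKM in the LD livers, with kidneys at 31.9, 26.6, 25.6 and 38.7 FPKM and 22.1 to 49.2 FPKM, and its kidney excess went from -4.20 to -2.96. Prkca, a protein kinase C isoform, behaved in the same manner, with livers at 1.27, 1.40, 1.84 and 1.58 FPKM in ADV and 0.552 to 0.656 FPKM in LD and a change of 1.26 ± 0.21. Ly6c1, a surface antigen of endothelium and some leukocytes, was a trace of 0.0250 to 0.141 FPKM in the LD livers and 0.658, 0.399, 0.542 and 0.239 FPKM in the ADV livers and had a change of 1.64 ± 0.27. In contrast, the liver excess of Chp2, a calcineurin-related protein, was wider in ADV, at 3.95 against 1.89 in LD, and the kidney excess of the laminin chain Lama3 was wider as well, at -2.74 against -1.44. Acpp went from -1.01 in LD to 0.09 in ADV. A transcript listed by a sequence record in place of a gene symbol, at chr19:10063632-10064017 (mm10), went from 2.28 to 1.35, and the microRNA gene Mir7231, untested in ADV for low level, was 0.918 to 5.15 FPKM in the LD kidneys and 0, 0, 0.423 and 0 FPKM in the ADV kidneys. Its exon is 60 bases long, so these levels are 6, 5, 2.5 and 1 fragments in L63, L65, L86 and L104 and 0, 0, 0.5 and 0 in the ADV kidneys.

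**Figure D5:**
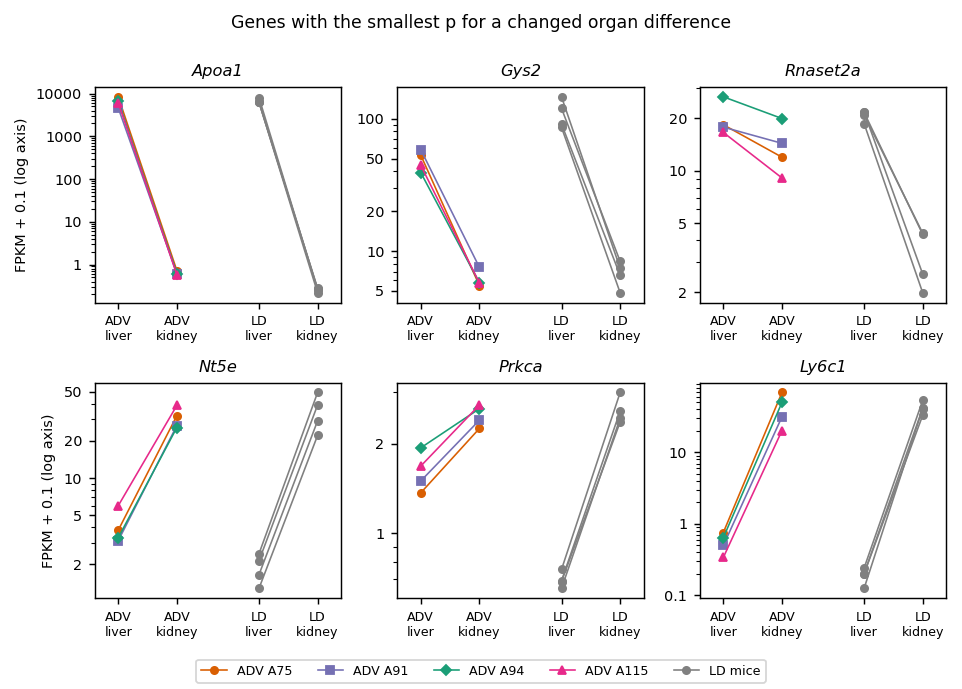
Levels of 6 genes with a small p for the change, as FPKM + 0.1 on a log axis, with liver and kidney of a mouse joined by a line and conditions drawn as in the plot of immune genes. For Rnaset2a the ADV kidneys, at 8.99 to 19.8 FPKM, lie above the LD kidneys, at 1.89 to 4.28 FPKM, and for Gys2 the ADV livers, at 39.0 to 58.2 FPKM, lie below the LD livers, at 85.9 to 146 FPKM.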

How the data were processed

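Poly(A)-selected RNA from liver and kidney of 8 mice was sequenced as paired ends. Per the labels and the study's methods, the authors trimmed adaptors with Trimmomatic, aligned the reads to mm10 with STAR 2.5.4b, removed reads with a mapping quality under 10, and counted exonic reads in HOMER against the canonical transcripts of UCSC. The deposited values are in FPKM, under column names that read RPKM, and were used as deposited. Samples were grouped by their labels, and all columns of values were used.

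Liver and kidney tables were joined by transcript identifier, and 682 symbols stood for more than 1 transcript. Values were taken as log2(FPKM + 0.1) for genes with a mean above 0.5 FPKM in either organ over the mice compared. The liver was compared with the kidney in limma 3.58.1 (R 4.3.3) with the mouse as a block and a trended variance prior, and the change between ADV and LD was the interaction of organ and condition over all 16 libraries. P-values were adjusted by Benjamini-Hochberg over all genes tested, with a threshold of 0.05. The fits were also run on simulated data, whose outcome is not given here, so no result rests on it. Single values were compared by an exact permutation test over 70 assignments. Each organ of 1 mouse is 1 library, so spread between mice and technical spread cannot be told apart. Levels and folds near 1 fragment cover counting error only where a bound is given.

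The mouse pairs the libraries because both organs came from the same animal, as the mouse numbers in the titles give it. The deviations of a liver and its kidney from their group means correlated with r of -0.00713, 0.242, 0.471 and 0.0432 in A75, A91, A94 and A115 and of 0.0641 to 0.143 in LD, across genes, each above the median of -0.00863 between different mice (8 of 8). Multiplied by exon length and library total, all FPKM values came out as steps of 0.5 fragment, with a tolerance of 0.01 fragments, and limma-voom was run on these fragments.

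The text names the 6 genes with the largest difference in each direction, the 6 with the smallest p of the change in each direction, the defining genes of each cell type, both genes of 12 pairs (9 of them shown) and, from each of 37 lists with 797 genes (788 found), the 3 with the highest level in the organ where they are higher, the 2 with the smallest p of the change and those that went against the organ of the list. A few genes under this rule are not reported here. The genes and lists were chosen with earlier results of these data known. A call under another pseudocount, filter, scaling, variance prior or test, and with each mouse left out, was computed as an alternative. Counts per list under other scalings and without a mouse were added after the data were seen.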

Additional observations from a re-analysis of the deposited data

Results flagged for a closer look

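Of 256 groups of 4 values, most from ADV-conditioned and a few from LD-conditioned mice, 18 had 1 mouse far from the other 3 by Dixon's ratio. All 18 were groups of ADV-conditioned mice, and chance alone gives about 1 in 20 groups. Among the genes named, 13 of 204 had such a mouse. For library measures, the 10 most abundant genes took 20.5% of fragments in the A94 liver against 23.7% to 23.97% in the other ADV livers. In the A115 kidney they took 40.0% against 14.8% to 18.5%, and mitochondrial transcripts took 33.8% against 9.43% to 13.1%.

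A115 was apart from the other 3 ADV-conditioned mice in the median difference of the collecting duct list, with -4.88 against -6.55 to -6.38, and in the liver minus kidney difference of Slc34a1, with -10.59 against -13.92 to -13.66, and Aqp2, with -4.26 against -10.97 to -10.03. It was apart as well in the endothelial gene Plvap, with 1.68 against -2.77 to -2.05, and in Tef, a clock output factor, with 1.43 against -0.84 to -0.52. Acpp had -0.29 in A115 against 0.16 to 0.25, and the microRNA gene Mir7231 had 2.20 against -0.17 to 0.00. The Mir7231 value rests on 0.359 FPKM in the A115 liver and 0 in the A115 kidney. On its exon of 60 bases 1 fragment in that kidney was worth 0.87 FPKM, so counting error dominates here. In Slc34a1 and Aqp2 the low kidney level of A115 made the organ difference smaller, and in Plvap, Tef and Acpp the sign of the difference turned.

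A94 was apart in Cyp3a11, with 12.53 against 14.47 to 14.86, in Clec4f, with 9.93 against 8.16 to 8.44, and in Prkca, with -0.44 against -0.72 to -0.68. Fabp4, a fatty acid-binding protein of fat cells and endothelium, had -0.22 in A94 against -2.84 to -2.64, where the A94 liver held 64.7 FPKM and the other ADV livers 10.6 to 26.4 FPKM. A75 was apart in the median of the chemokine list, with -2.08 against -0.88 to -0.76, and in the lysosomal protease Ctsl, with -0.25 against 0.20 to 0.28. Ctrb1, a digestive protease of the pancreas, had 5.59 in A75 against 0 in the other ADV-conditioned mice, since the A75 liver held 4.73 FPKM. In A91 the smooth muscle actin gene Acta2 had -4.43 against -2.49 to -2.34, and the A91 liver held 0.599 FPKM.

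The organ difference of H2-Q4 was negative in every ADV-conditioned mouse and positive in every LD-conditioned mouse, with a change of -0.49 (exact permutation p = 0.0286, the smallest that 4 against 4 allows, and not past the limma adjustment over all genes). H2-Q4 was flagged for this separation, which by itself fixes the exact p. Over all genes tested, 0.568% were apart toward kidney.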

How the results depend on the processing

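Against 1262 genes higher in liver and 5497 in kidney, the counts were 2411 and 2817 with median-ratio scaling over all libraries and 2212 and 2802 with quantile normalisation. Without A115 and scaled within each organ, 8524 genes were higher in kidney and 681 had a changed organ difference. With 1 mouse left out, the kidney count ran from 2713 (without A91) to 9155 (without A115), with 3123 without A75 and 3421 without A94, and the count of changed differences from 0 to 504. Without a filter on low values 2 genes had a changed difference. Under the other pseudocounts, filters, within-organ scaling, without mitochondrial genes, without a variance trend and with voom, 1168 to 1354 genes were higher in liver and 4992 to 6589 in kidney. The cause of these moves was not tested.

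Without the block of the mouse, 1294 genes were higher in liver and 5723 in kidney and the count of changed differences remained 0. Among the genes named, 15 lost their call without the block, among them Cd3e, Cd74, H2-Ab1, H2-Aa, H2-K1, H2-M3, S100a8, Ccl8, Bcl6, Col1a1, Postn, Dbp and Nr1d1, and 3 gained one. The ADV minus LD difference in spread, -0.0144, was 0.00480 and 0.00824 with pseudocounts of 0.5 and 1, 0.0169 with quantile normalisation, and -0.0826 to 0.0500036 with 1 mouse left out. No other alternative turned its sign, and none brought its p under the threshold. For the genes named, 2993 values of the ADV difference stayed on their side of the threshold. These kept their direction or, without a call, turned sign by a move smaller than the SE of the main fit. Of the rest, 94 gained and 106 lost a call, 33 turned sign without a call by at least that SE, and 3 turned sign with a call on one side. H2-M3 was 0.041 under quantile normalisation. Slc22a7 ran from -0.76 (without A115) to 0.83 (without A94) and Ecm1 from -0.61 to 0.67. Of the list counts, computed after the data were seen, 406 stayed within 1.5 times and 112 did not. Depth limits the genes listed at 0 in an organ to the bounds given.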

Other observations

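Genes of the circadian clock, chosen after their values were seen apart from the list they belong to, varied widely between the mice. Of 19 clock and output genes 2 were higher in liver and 5 in kidney, with a median of -0.01 that was 0.71 under median-ratio scaling, where the counts were 6 and 1. With a mouse left out they were 1 and 1 without A75, 1 and 2 without A91, 1 and 3 without A94 and 2 and 9 without A115, the last with a median of -0.33, and without the mouse block 2 and 2. Dbp, an output factor that the clock drives, was 2.399, 37.8, 33.7 and 1.33 FPKM in the ADV livers and 12.1, 68.5, 58.1 and 5.32 FPKM in the ADV kidneys, so that A91 and A94 were high and A75 and A115 low in both organs. The study took organs over a window of several hours, and the hour of each mouse is not given in the sources used here. The core activator gene Arntl ran the other way, with 5.91, 1.06, 0.723 and 6.72 FPKM in the livers and 4.61, 0.822, 1.21 and 6.35 FPKM in the kidneys. The repressor gene Nr1d1 was 2.20, 8.78, 6.22 and 1.40 FPKM and 6.55, 20.2, 13.5 and 2.24 FPKM, higher in the kidney of all 4 mice by a difference of -1.12 ± 0.23 (limma adjusted p = 0.0129), which did not pass without the mouse block. Its change against LD was -0.83 ± 0.25 (exact permutation p = 0.0286, not past adjustment over all genes), and -0.99 without A115 (limma adjusted p = 0.0351).

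Male-biased genes, which androgens or growth hormone pulses raise in males, were counted in both organs. Of 16 male-biased liver genes 12 were higher in liver and 1 in kidney, with a median of 3.36 (7 or 8 in liver without A75, A91 or A94). The medians of A75, A91, A94 and A115 were 2.21, 1.87, 3.20 and 6.33, and the list median was 2.12 without A115. The 1 in kidney was Ugt2b38, a glucuronosyltransferase, with 1.35, 1.26, 0.349 and 2.71 FPKM against 264, 307, 164 and 319.7 FPKM. Of 14 male-biased kidney genes 8 were higher in kidney and 1, Cyp2e1, in liver, with a median of -1.75, and median-ratio scaling gave 7 and 4 with a median of -1.02. The fatty acid elongase gene Elovl3 was 52.8, 32.8, 4.23 and 168 FPKM in the livers and 0 in the kidneys, lowest in A94.

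Genes of other cell types varied between libraries. The bile duct genes summed to 73.1, 30.9, 252 and 36.9 FPKM in the livers, highest in A94, whereas 3 of them, picked after their values were seen, were highest in A75. Muc1, a membrane mucin, was 5.07, 0.329, 0.531 and 0.752 FPKM in the livers, Anxa13, an annexin of epithelia, 4.30, 0.525, 0.4004 and 0.785 FPKM, and the keratin gene Krt19 14.2, 0.786, 0.815 and 6.31 FPKM. Of 6 erythroid genes 1, the haem synthesis gene Alas2, was higher in liver, at 2.79 ± 0.36, and 2 in kidney, with a median of -0.55 that was 0.18 under median-ratio scaling. Without A115 the erythroid counts were 1 and 4 with a median of -1.31. Of 8 adipocyte genes 3 were higher in liver and 1 in kidney (2 and 0 without A91), and Fabp4 was 20.1, 10.6, 64.7 and 26.4 FPKM in the livers and 144, 74.7, 75.4 and 164 FPKM in the kidneys. Of 2 exocrine pancreas genes tested 1 was higher in kidney, and none with A75, A91 or A94 left out.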
